A study of Rattus norvegicus with 12 samples.

Results

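The unfolded protein response and the integrated stress response were followed through 10 genes in rat cardiac progenitor cells: Atf4, Ddit3, Trib3, Asns, Chac1, Sesn2, Ddit4, Hspa5, Xbp1 and Herpud1. They were taken by their Entrez identifiers, and all 10 were found among the 16924 genes counted in each library. RNA was sequenced from 12 libraries. They came from 4 groups of 3: suspension, fibronectin-coated dishes, laminin-coated dishes, and dishes with no coating, called uncoated here. Fibronectin and laminin are matrix proteins that cells bind through integrins. The cells of all 4 groups came from a single clone grown with 10% fetal bovine serum, leukemia inhibitory factor, basic fibroblast growth factor, erythropoietin and glutathione, and the labels name no genetic change in any group. Plated cells were sparse, so that they did not touch, and were kept for 2 h in 0.1% serum before collection. The labels attach that protocol to the suspension libraries as well, and how those cells were held is not given in the sources used here. Replicates 1, 2 and 3 of every group belonged to batches 1, 2 and 3, and p-values therefore measure variation between batches of this clone, not between animals.

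Protein folding in the endoplasmic reticulum (ER) is watched by 3 sensors. PERK phosphorylates the initiation factor eIF2alpha, IRE1 splices the mRNA of the transcription factor XBP1, and ATF6 is cut to release a transcription factor. Phosphorylation of eIF2alpha, which the kinases GCN2, PKR and HRI also carry out on amino acid lack, double-stranded RNA and heme lack, slows translation in general and favors translation of ATF4. ATF4 then drives genes of amino acid supply and the factor CHOP, while ATF6 and spliced XBP1 drive ER chaperones such as BiP. Much of this control acts on translation, phosphorylation or splicing, and gene-level read counts see only the amount of transcript.

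Sequencing depth was 15875160 to 20852160 counts per library. Of the mesenchymal markers, Vim and Col1a1 had mean levels of 5125 and 1164 CPM (counts scaled to the library total), while Thy1 had 18 counts over all libraries. Of the cardiac progenitor markers, Gata4 was at 88.4 and Kit at 3.09 CPM, and Tbx20 had 0 counts, which allows up to 3. Of the cardiomyocyte markers, Tnnt2 was at 4.32 CPM, Actn2 and Myh6 had 8 and 1 counts over all libraries, and Nkx2-5 and Myh7 had 0. The attached libraries of batch 3 stood apart from those of batches 1 and 2, with 53.9% of 9975 genes differing at an adjusted p under 0.05, and calls and counts against suspension are therefore also given without batch 3 where they change.

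The promoters of several of the genes carry known stress elements, and 8 windows are shown here because they hold such an element or belong to a gene that passed the test against suspension on at least 1 surface. Each run holds the 250 bases before the annotated start in RefSeq, assembly GRCr8, read 5′ to 3′ on the strand of the gene, with capitals marking a matched element. The first 3 genes encode or serve the ER folding machinery, Chac1 and Trib3 belong to the ATF4 arm, and Atf4, Ddit4 and Ddit3 are the genes that passed.
Hspa5, chr3:38452766-38453015, plus strand: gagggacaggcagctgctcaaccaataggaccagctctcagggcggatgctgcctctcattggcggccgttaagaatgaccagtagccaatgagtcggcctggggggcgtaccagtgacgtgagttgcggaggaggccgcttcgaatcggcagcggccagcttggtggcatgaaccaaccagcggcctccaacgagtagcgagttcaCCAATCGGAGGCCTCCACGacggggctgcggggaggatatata
Xbp1, chr14:84604373-84604622, plus strand: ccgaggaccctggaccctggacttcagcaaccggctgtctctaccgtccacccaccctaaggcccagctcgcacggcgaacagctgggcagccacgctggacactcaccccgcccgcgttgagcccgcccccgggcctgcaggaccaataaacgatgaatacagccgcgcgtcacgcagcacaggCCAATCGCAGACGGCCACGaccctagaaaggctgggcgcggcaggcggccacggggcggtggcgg
Herpud1, chr19:10614708-10614957, minus strand: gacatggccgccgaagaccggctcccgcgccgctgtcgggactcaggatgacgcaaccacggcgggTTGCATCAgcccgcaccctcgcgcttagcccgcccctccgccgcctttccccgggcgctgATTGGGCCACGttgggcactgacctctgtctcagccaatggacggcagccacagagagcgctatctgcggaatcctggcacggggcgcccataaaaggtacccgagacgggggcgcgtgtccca
Chac1, chr3:126795881-126796130, plus strand: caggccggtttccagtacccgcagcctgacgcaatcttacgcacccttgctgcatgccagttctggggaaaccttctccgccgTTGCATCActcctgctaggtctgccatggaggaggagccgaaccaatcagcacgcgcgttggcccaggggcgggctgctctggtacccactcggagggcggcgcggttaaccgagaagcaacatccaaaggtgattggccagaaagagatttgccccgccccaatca
Trib3, chr3:161275534-161275783, minus strand: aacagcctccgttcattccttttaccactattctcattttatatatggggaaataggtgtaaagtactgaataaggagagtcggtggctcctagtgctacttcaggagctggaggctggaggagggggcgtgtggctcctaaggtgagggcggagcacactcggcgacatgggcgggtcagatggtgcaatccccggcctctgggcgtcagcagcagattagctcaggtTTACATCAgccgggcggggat
Atf4, chr7:113684431-113684680, plus strand: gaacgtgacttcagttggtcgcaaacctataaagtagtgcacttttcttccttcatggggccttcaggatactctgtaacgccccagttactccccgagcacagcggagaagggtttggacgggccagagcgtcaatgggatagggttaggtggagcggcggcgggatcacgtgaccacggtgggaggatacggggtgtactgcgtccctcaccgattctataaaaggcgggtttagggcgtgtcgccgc
Ddit4, chr20:28437038-28437287, minus strand: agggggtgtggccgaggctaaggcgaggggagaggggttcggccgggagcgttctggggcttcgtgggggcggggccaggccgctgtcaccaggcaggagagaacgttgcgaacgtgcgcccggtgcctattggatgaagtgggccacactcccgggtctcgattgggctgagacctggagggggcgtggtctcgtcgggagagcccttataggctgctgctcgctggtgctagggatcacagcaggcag
Ddit3, chr7:65001445-65001694, plus strand: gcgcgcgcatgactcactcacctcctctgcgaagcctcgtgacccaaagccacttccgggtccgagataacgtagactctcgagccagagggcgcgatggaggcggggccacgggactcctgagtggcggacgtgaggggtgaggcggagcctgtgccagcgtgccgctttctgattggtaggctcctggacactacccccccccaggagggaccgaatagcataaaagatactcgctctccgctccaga

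The ER stress element (ERSE), CCAAT and CCACG with 9 bases of any kind between them, is a site of ATF6. Searched on both strands of 300-base windows that reach 50 bases past the start, it was found in 22 of 33469 rat promoters, or 0.0657%. Hspa5 held it 43 to 25 bases before the start and Xbp1 held it 65 to 47 bases before the start. The related element ERSE-II, ATTGG and CCACG with 1 base between them, was in 17 promoters, or 0.0508%, and Herpud1 held it 124 to 114 bases before its start. The core of the site that ATF4 binds with C/EBP factors (CARE), TGATGNAA, was more common, in 3.98% of promoters. It was read on the opposite strand in Chac1, 167 to 160 bases before the start, in Herpud1, 184 to 177 bases before it, and in Trib3, 21 to 14 bases before it. No member held the exact XBP1 core TGACGTGG, present in 0.595% of promoters, or the exact cyclic AMP element TGACGTCA, present in 1.83%. Variants of these strings were not searched, and the Hspa5 window holds TGACGTGA, which differs from TGACGTGG in its last base. The windows of Atf4, Ddit4, Ddit3, Asns and Sesn2 held none of these letter strings. The matches describe the sequence of the windows and do not show binding.

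Atf4, the transcription factor at the center of the integrated stress response (Entrez 79255), was higher in attached cells on every surface. In batches 1, 2 and 3 its level was 463, 419 and 435 CPM in suspension. The cells on fibronectin had 559, 561 and 651 CPM. Those on laminin had 557, 560.4 and 619.7 CPM, and those on uncoated dishes 564, 565 and 647 CPM. Every attached library was above every suspension library, and within each surface batch 3 was highest. The group means were 439 ± 22.3 CPM (SD, n = 3) in suspension, 579 ± 35.3 on laminin, 590.1 ± 52.8 on fibronectin and 592 ± 47.9 on uncoated dishes, and the 3 surfaces overlapped. With edgeR's quasi-likelihood test and Benjamini-Hochberg adjustment over 10020 genes, the log2 fold change against suspension was 0.46 ± 0.07 (SE) on fibronectin, or 1.38-fold (adjusted p = 0.00246). It was 0.40 ± 0.07, or 1.32-fold, on laminin (adjusted p = 0.00424) and 0.45 ± 0.07, or 1.37-fold, on uncoated dishes (adjusted p = 0.00266). The 3 comparisons share the suspension libraries and are not independent. The rise held without each single library, with log2 fold changes of 0.37 to 0.50, and without batch 3, when they were 0.39, 0.36 and 0.39 on fibronectin, laminin and uncoated dishes. Within batches the ratio to the suspension library was smallest in batch 1, 1.203 to 1.219, and largest in batch 3, 1.424 to 1.496. In RNA from a whole culture, more cells with a transcript and more transcript per cell cannot be told apart.

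Other transcripts rose with Atf4. The 72 genes of cytosolic ribosomal proteins, a set looked at after its values were seen, had median log2 fold changes of 0.30 on fibronectin, 0.35 on laminin and 0.33 on uncoated dishes, and 30, 65 and 54 of them passed the test as higher. Genes spanning under 5000 bases of genome, 1190 in all, had medians of 0.14, 0.16 and 0.15, beside medians of 0.00, -0.01 and 0.00 over all genes. In GRCr8 Atf4 spans 2059 bases, Ddit4 2100, Chac1 3222, Hspa5 4460 and Ddit3 4823, and the other members span more than 5000 bases. Of those under 5000 bases, Chac1 and Hspa5 were not called on any surface and Ddit3 was called lower on laminin. Transcript length was not measured. The part of genomic span or of the ribosomal protein set in the rise of Atf4 was not tested.

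Ddit3 encodes CHOP, the pro-apoptotic factor downstream of ATF4 (Entrez 29467), and its level did not follow that of Atf4. It was at 50.5, 36.0 and 47.7 CPM in suspension in batches 1, 2 and 3. On fibronectin it was at 33.7, 33.1 and 34.4 CPM and on laminin at 34.0, 32.1 and 36.6 CPM. On uncoated dishes it was at 33.4, 36.2 and 39.9 CPM. Suspension libraries 1 and 3 were above all attached libraries, while suspension library 2 lay within the range of the laminin and uncoated libraries. The log2 fold change was -0.38 ± 0.11 on laminin (edgeR adjusted p = 0.0326), -0.37 ± 0.11 on fibronectin (adjusted p = 0.0560) and -0.28 ± 0.11 on uncoated dishes (adjusted p = 0.113). The fall on laminin therefore passed the threshold and the other differences missed it. With DESeq2 the fall passed on laminin and fibronectin (adjusted p = 0.00924 and 0.0207) and missed on uncoated dishes (adjusted p = 0.0763). With the batch as a block in the fit, all 3 passed, at adjusted p = 0.0189 on fibronectin and 0.0439 on uncoated dishes.

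In fits without the block, the Ddit3 calls turned on single libraries. On laminin the edgeR adjusted p was 0.103 without suspension library 1, 0.119 without suspension library 3, 0.0696 without laminin library 1, 0.0949 without laminin library 2 and 0.0570 without laminin library 3. It was 0.0845 without batch 3. Without suspension library 2 the log2 fold change moved to -0.49 on fibronectin (edgeR adjusted p = 0.0105) and -0.40 on uncoated dishes (adjusted p = 0.0268), both past the threshold. The log2 fold change was negative in all these fits.

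Trib3, a pseudokinase induced by ATF4 and CHOP (Entrez 246273), varied between batches in every group. Its level in batches 1, 2 and 3 was 23.6, 13.8 and 19.7 CPM in suspension. It was 23.1, 18.33 and 25.1 CPM on fibronectin and 21.6, 18.6 and 25.9 CPM on laminin. On uncoated dishes it was 24.1, 22.6 and 28.7 CPM. All 4 groups overlapped, and batch 2 was lowest in each group. The largest log2 fold change was 0.42 ± 0.19 on uncoated dishes, which did not pass without the block (edgeR adjusted p = 0.149) and passed with it (adjusted p = 0.0140). On fibronectin and laminin it was 0.26 ± 0.19 and 0.22 ± 0.19.

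Chac1, an enzyme that degrades glutathione and a target of ATF4 (Entrez 362196), was at 16.8, 12.7 and 16.5 CPM in suspension in batches 1, 2 and 3. On fibronectin it was at 19.2, 16.4 and 20.1 CPM, on laminin at 13.7, 14.5 and 18.8 CPM and on uncoated dishes at 14.9, 18.2 and 20.1 CPM. The 4 ranges overlapped. Each fibronectin library was above the suspension library of its batch, but the log2 fold change of 0.32 ± 0.15 did not pass (edgeR adjusted p = 0.199). It was 0.03 ± 0.15 on laminin, with a 95% interval of -0.30 to 0.36, and 0.23 ± 0.15 on uncoated dishes.

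Asns, the enzyme that makes asparagine and a standard readout of ATF4 activity (Entrez 25612), did not differ detectably between groups. Its mean level was 125 ± 5.60 CPM in suspension, 128 ± 12.5 on fibronectin, 129 ± 15.7 on uncoated dishes and 134 ± 7.50 on laminin (SD, n = 3). Its lowest library was uncoated library 1, at 116 CPM, and its highest was uncoated library 3, at 146 CPM. The log2 fold changes against suspension were 0.07, 0.10 and 0.06 on fibronectin, laminin and uncoated dishes, with SEs of 0.08. The 95% intervals reached no higher than 0.25, 0.29 and 0.25, and the estimated rise of Atf4 on each surface, at 0.40 to 0.46, lay above these bounds. The intervals of Atf4 began at 0.31, 0.25 and 0.29, so that on laminin the intervals of the 2 genes overlapped. Whether the 2 genes differed in their response was not tested.

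Sesn2 encodes sestrin 2, a stress-induced inhibitor of mTORC1 signaling (Entrez 502988), and it was scarce, with 47 to 73 counts per suspension library. It was at 4.41, 2.61 and 3.47 CPM in suspension in batches 1, 2 and 3, a range that held all attached libraries. Those were at 3.05 to 3.29 CPM on fibronectin, 3.26 to 3.74 CPM on laminin and 3.72 to 4.11 CPM on uncoated dishes. No difference from suspension passed the test. The 95% interval of the log2 fold change on fibronectin was -0.45 to 0.27, and changes within it could not be told from no change.

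Ddit4 encodes REDD1, another stress-induced inhibitor of mTORC1 (Entrez 140942), and had the largest differences from suspension among the 10 genes. It was at 8.28, 3.05 and 4.87 CPM in suspension in batches 1, 2 and 3, from 137, 55 and 87 counts. On fibronectin it was at 9.06, 7.73 and 9.05 CPM. On laminin it was at 14.3, 9.78 and 12.4 CPM and on uncoated dishes at 13.8, 10.3 and 13.29 CPM. The suspension libraries spread widely, and suspension library 1 was above fibronectin library 2. All laminin and uncoated libraries were above all suspension and all fibronectin libraries. The group means rose from 5.40 ± 2.65 CPM in suspension through 8.61 ± 0.766 on fibronectin to 12.2 ± 2.27 on laminin and 12.5 ± 1.92 on uncoated dishes, and the last 2 groups overlapped.

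The log2 fold change of Ddit4 was 1.18 ± 0.28 on laminin, or 2.27-fold (edgeR adjusted p = 0.0163), and 1.24 ± 0.28 on uncoated dishes, or 2.36-fold (adjusted p = 0.0175). On fibronectin it was 0.72 ± 0.28 (adjusted p = 0.131), and with the batch as a block it passed there too (adjusted p = 0.0127). On laminin and uncoated dishes the edgeR adjusted p with the block was 0.000915 and 0.000983. With DESeq2 it was 0.000668 and 0.000500 there and 0.0821 on fibronectin. In fits without the block, the laminin and uncoated calls ended without suspension library 3, at edgeR adjusted p of 0.0676 and 0.0770. They also ended without batch 3, at 0.0684 and 0.0820. Without suspension library 1, in which Ddit4 was highest among suspension libraries, the log2 fold change on fibronectin was 1.14 (edgeR adjusted p = 0.0193). Within batches the laminin library held 1.73, 3.21 and 2.55 times the suspension level in batches 1, 2 and 3.

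**Figure D1:**
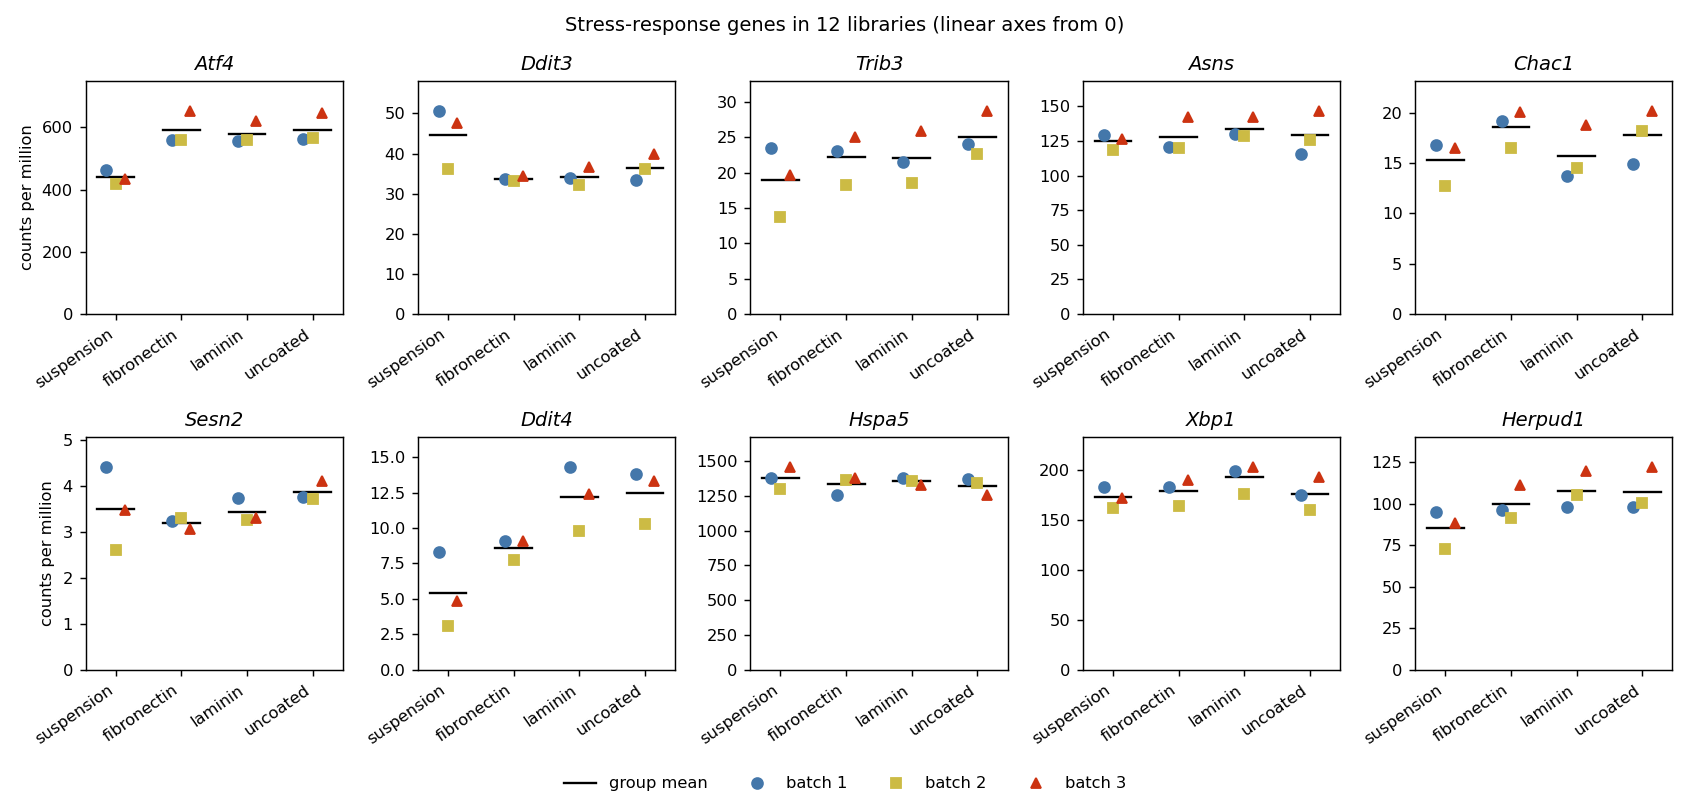
Levels of the 10 genes in CPM on linear axes that start at 0, 1 panel per gene, by group, with 1 point per library marked by batch and a bar at the group mean of 3 libraries. All 9 attached libraries lie above the 3 suspension libraries for Atf4, and the 6 laminin and uncoated libraries do so for Ddit4.

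Hspa5 encodes BiP, the main ER chaperone and a standard marker of the unfolded protein response (Entrez 25617). Its level was 1379.6, 1302 and 1459.9 CPM in suspension in batches 1, 2 and 3. It was 1261, 1363 and 1378 CPM on fibronectin, 1383, 1359 and 1327 CPM on laminin and 1375, 1344 and 1258 CPM on uncoated dishes. All groups overlapped and the group means, 1326 to 1380.4 CPM, differed by less than the spread between suspension libraries. The log2 fold changes were -0.01, -0.02 and -0.04, with SEs of 0.07, on fibronectin, laminin and uncoated dishes. The 95% intervals were -0.16 to 0.14, -0.17 to 0.13 and -0.19 to 0.11. Within the attached cells the batch order also differed: batch 3 was highest on fibronectin and lowest on laminin and uncoated dishes.

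Xbp1, the transcription factor activated by IRE1 (Entrez 289754), was at 183, 162 and 172 CPM in suspension in batches 1, 2 and 3. It was at 183, 164 and 189.7 CPM on fibronectin, 199, 176 and 203 CPM on laminin and 175, 160.4 and 193 CPM on uncoated dishes. The ranges overlapped, and each laminin library was above the suspension library of its batch. The log2 fold change on laminin was 0.16 ± 0.08, which did not pass without the block (edgeR adjusted p = 0.188) and passed with it (adjusted p = 0.0262). On fibronectin and uncoated dishes it was 0.09 ± 0.08 and 0.05 ± 0.08. Spliced and unspliced Xbp1 cannot be told apart in counts per gene.

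Herpud1, an ER membrane protein of ER-associated degradation induced by ATF6, XBP1 and ATF4 (Entrez 85430), was at 95.1, 72.7 and 88.2 CPM in suspension in batches 1, 2 and 3. On fibronectin it was at 96.4, 91.3 and 111 CPM. On laminin it was at 98.3, 105 and 120.0 CPM and on uncoated dishes at 98.1, 100.2 and 122 CPM. Each attached library was above the suspension library of its batch, and the laminin and uncoated ranges lay above the suspension range. The log2 fold change was 0.26 ± 0.11 on fibronectin (edgeR adjusted p = 0.166), 0.34 ± 0.11 on laminin (adjusted p = 0.0568) and 0.34 ± 0.11 on uncoated dishes (adjusted p = 0.0680), so that no comparison passed. With the batch as a block all 3 passed, at adjusted p = 0.0363, 0.00865 and 0.0104, and with DESeq2 the laminin comparison passed (adjusted p = 0.0461).

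**Figure D2:**
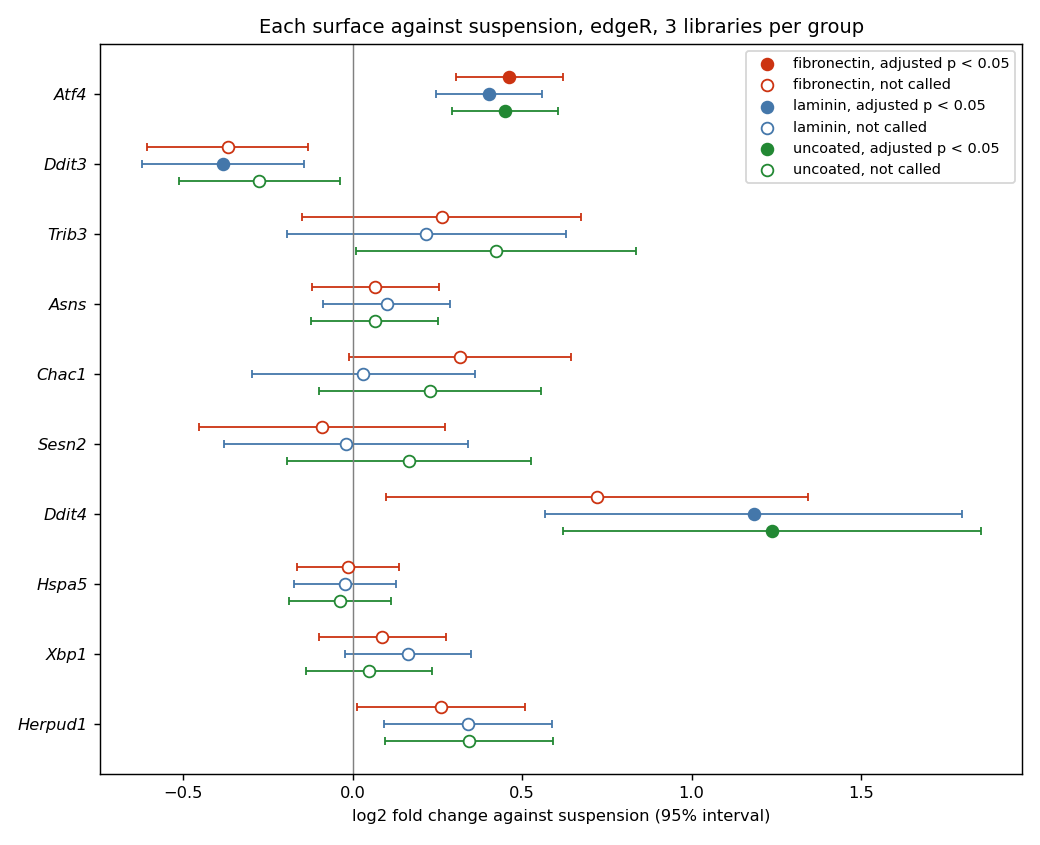
Log2 fold change of each gene on fibronectin, laminin and uncoated dishes against suspension, with its 95% interval, from the edgeR fit without the block. Filled points passed an adjusted p of 0.05: Atf4 on all 3 surfaces, Ddit4 on laminin and uncoated dishes, and Ddit3, which was lower, on laminin.

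In the fit without the block, which does not use the pairing of libraries by batch, 1 of the 10 genes was called on fibronectin. On laminin 3 were called and on uncoated dishes 2. The backgrounds over all tested genes were 9.67%, 19.0% and 12.6%. Higher calls made up 6.61%, 12.1% and 8.48% of all genes, and lower calls 3.06%, 6.96% and 4.10%. The counts among the 10 genes lay close to these shares. CPM ranges that did not overlap suspension were seen for 2 genes on fibronectin (Atf4 and Ddit3) and 3 genes each on laminin and uncoated dishes (Atf4, Ddit4 and Herpud1), where the backgrounds were 40.6%, 44.9% and 41.1%. These shares were below the backgrounds. The median log2 fold change of the 10 genes was 0.17, 0.13 and 0.20, beside 0.00, -0.01 and 0.00 over all genes.

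With the batch as a block 4, 5 and 5 of the 10 genes were called on fibronectin, laminin and uncoated dishes, Ddit3 lower and the others higher. Atf4, Ddit4 and Herpud1 were called higher and Ddit3 lower in all 3, joined by Xbp1 on laminin and Trib3 on uncoated dishes. The same fit called 2872, 4333 and 3889 of the 10020 genes. Within batches, Atf4, Ddit4 and Herpud1 were above the suspension library in all 3 batches on all 3 surfaces. Ddit3 was below it in all 3 batches on fibronectin and laminin.

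The suspension libraries shared an order. Library 2 was the lowest of the 3 for all 10 genes, while it was lowest for 47.25% of all tested genes. Library 1 was the highest for 9 of the 10 genes, against 48.3% of all tested genes. Ddit4 had log2 ratios to the suspension library on fibronectin of 0.13, 1.34 and 0.89 in batches 1, 2 and 3. Sesn2 changed direction between batches, with log2 ratios on fibronectin of -0.45, 0.34 and -0.19. The part of suspension library 2 in these differences was not tested beyond leaving it out.

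**Figure D3:**
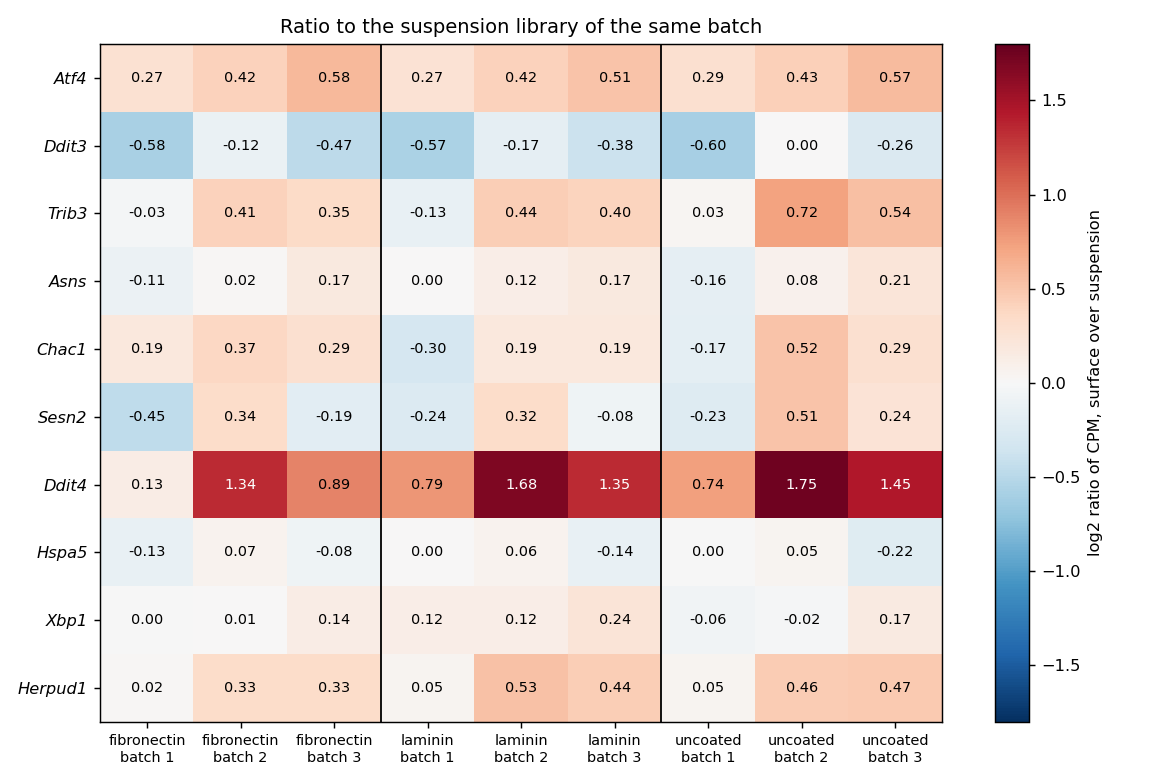
Log2 ratio of CPM in each attached library to the suspension library of the same batch, genes in rows and libraries in columns, with red for higher and blue for lower. Atf4, Ddit4 and Herpud1 are higher in all 9 columns, and the largest ratio is that of Ddit4 on uncoated dishes in batch 2, 1.75.

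No difference between the 3 surfaces passed the test in these genes. No member was called between laminin and fibronectin, fibronectin and uncoated dishes, or laminin and uncoated dishes, where 0.150%, 0.180% and 0% of all genes were called by edgeR. No member had an unadjusted p under 0.05 in any of these 3 comparisons, and none was called by DESeq2. The widest separation was that of Ddit4. Its log2 fold change was 0.46 ± 0.27 on laminin over fibronectin, with a 95% interval of -0.13 to 1.05, and -0.52 ± 0.27 on fibronectin over uncoated dishes, with an interval of -1.11 to 0.08. Its laminin and uncoated libraries did not overlap the fibronectin libraries in CPM, and Sesn2 was also apart between fibronectin and uncoated dishes. Such separation was seen for 6.05% and 5.97% of all genes, and for 3.58% between laminin and uncoated dishes, where no member was apart. Chac1 was lower on laminin than on fibronectin by a log2 fold change of -0.28 ± 0.15, with an interval of -0.61 to 0.04, which did not pass. For Atf4 the intervals were -0.22 to 0.10 for laminin over fibronectin and -0.20 to 0.11 for laminin over uncoated dishes. For Hspa5 they were -0.16 to 0.14 and -0.13 to 0.17.

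The batches of the attached cells were compared over the same genes. In the 9 attached libraries, 6 of the 10 genes were higher in batch 3 than in the mean of batches 1 and 2, and 0 were lower. Over all genes 53.9% were called, 25.3% higher and 28.6% lower. The number called among the 10 genes was near the background of both directions together, but its split by direction was not. Trib3 was higher by a log2 difference of 0.27 ± 0.06 (edgeR adjusted p = 0.00473), Herpud1 by 0.21 ± 0.04 (adjusted p = 0.00308), Asns by 0.17 ± 0.04 (adjusted p = 0.00932) and Atf4 by 0.14 ± 0.03 (adjusted p = 0.00709). Chac1, by 0.24 ± 0.09 (adjusted p = 0.0423), and Xbp1, by 0.10 ± 0.04 (adjusted p = 0.0396), passed narrowly. Ddit3, at 0.08 ± 0.06, Ddit4, at 0.06 ± 0.07, Sesn2, at -0.06 ± 0.11, and Hspa5, at -0.08 ± 0.04, did not pass. These p-values compare the batches at hand and not conditions. The median over the 72 ribosomal protein genes in the same contrast was 0.16, with 51 of them called higher and 1 lower. Of 1188 genes spanning under 5000 bases, 37.5% were called higher and 8.5% lower. A split toward higher calls was therefore not particular to the 10 genes, and its cause was not tested.

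The batch calls of Trib3, Herpud1 and Atf4 held without each single library. Asns was lost without uncoated library 3 (edgeR adjusted p = 0.0576). Chac1 was lost without fibronectin library 2 (adjusted p = 0.112), laminin library 1 (0.0989), 2 (0.0905) or 3 (0.222), or uncoated library 1 (0.0827) or 3 (0.0902), and with DESeq2 (0.0947). Xbp1 was lost without any 1 library except fibronectin library 1, with edgeR adjusted p between 0.0590 and 0.193, and with DESeq2 (0.131). Hspa5 was called lower without fibronectin library 1 (adjusted p = 0.0316) or fibronectin library 3 (adjusted p = 0.0158). The number of members called was 3 to 7 over these fits, lowest without uncoated library 3, and 4 with DESeq2. Of the pathway lists described next, amino acid synthesis had 10 of 12 genes higher in batch 3 and 0 lower. The others were mixed: 6 higher and 6 lower among eIF2alpha regulators, 4 and 2 among ER stress sensors, 5 and 3 among amino acid transporters, and 6 and 5 among aminoacyl-tRNA synthetases. Stress transcription factors had 4 and 3, ER chaperones 8 and 8, ER-associated degradation 7 and 6, sestrins 0 and 0, and heat shock genes 5 and 4.

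**Figure D4:**
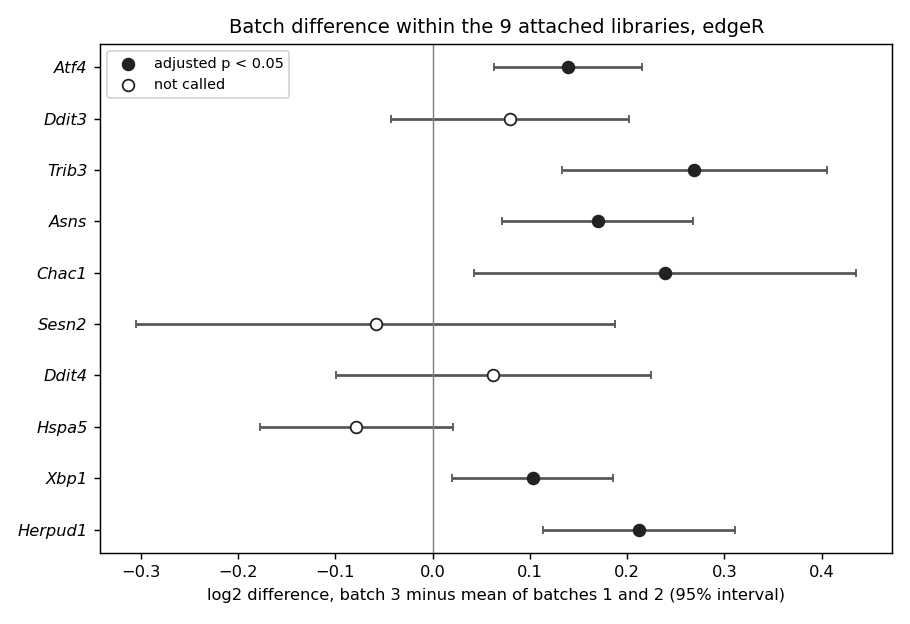
Log2 difference of each gene between batch 3 and the mean of batches 1 and 2 within the 9 attached libraries, with its 95% interval, from an edgeR fit with the surface as a term. Filled points passed an adjusted p of 0.05, and the 6 of them lie between 0.10 and 0.27.

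The wider pathway was read from 10 lists that hold 138 genes, of which 123 were tested. Against suspension, 16 were higher and 3 lower on fibronectin, 30 higher and 5 lower on laminin and 25 higher and 3 lower on uncoated dishes. Their median log2 fold changes were 0.06, 0.08 and 0.09. Over all 10020 tested genes, 6.61%, 12.1% and 8.48% were higher on these surfaces and 3.06%, 6.96% and 4.10% were lower. The blocked fit called 2872, 4333 and 3889 of all genes in either direction. The list counts below are to be read beside these backgrounds. All-gene counts against suspension without batch 3 are not given here, so list counts without batch 3 have no background beside them. Between surfaces edgeR called 0 of the listed genes in each comparison, and DESeq2 called 0. An unadjusted edgeR p under 0.05 was seen for 7, 3 and 1 of them. These were in laminin against fibronectin, fibronectin against uncoated and laminin against uncoated.

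Upstream of Atf4, among 14 eIF2alpha kinases, phosphatases and eIF2B subunits, 1 rose and 1 fell on each surface. Without batch 3 it was 1 and 2 on each, and with the batch as a block 2 and 3 on fibronectin and on laminin and 1 and 2 on uncoated dishes. Eif2b2, a subunit of the exchange factor that eIF2alpha phosphorylation inhibits, rose by 0.54 ± 0.10 on fibronectin, 0.65 ± 0.10 on laminin and 0.55 ± 0.10 on uncoated dishes (log2, edgeR adjusted p = 0.00850, 0.00220 and 0.00684). Eif2ak4, which encodes the amino acid sensing kinase GCN2, fell by 0.46 ± 0.10, 0.61 ± 0.10 and 0.54 ± 0.10 on the same scale (adjusted p = 0.0155, 0.00241 and 0.00600). On fibronectin its call ended without suspension library 1 (adjusted p = 0.0513), suspension library 3 (0.0677) or fibronectin library 3 (0.0703). Ppp1r15a, which encodes the stress-induced eIF2alpha phosphatase subunit GADD34, was not called, with log2 fold changes of 0.19 ± 0.11 on fibronectin and -0.08 ± 0.11 on laminin.

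Among 10 ER stress sensors and their proteases, 1 rose on fibronectin, 3 rose and 1 fell on laminin, and 3 rose on uncoated dishes. Without batch 3, 0 rose and 1 fell on fibronectin, 1 rose and 2 fell on laminin, and 1 rose and 1 fell on uncoated dishes. In the blocked fit 5, 5 and 4 rose and 1, 2 and 1 fell. Creb3, an ER-bound transcription factor cut like ATF6, rose by 0.36 ± 0.08 on laminin (edgeR adjusted p = 0.0127), a call that ended without suspension library 2 (adjusted p = 0.0510). It was also called on fibronectin, at 0.32 ± 0.08 (edgeR adjusted p = 0.0289), and on uncoated dishes, at 0.32 ± 0.08 (adjusted p = 0.0256). The fibronectin call ended without suspension library 1 (0.0751), 2 (0.104) or 3 (0.0806), fibronectin library 1 (0.0898) or 3 (0.131), or batch 3 (0.0652). The uncoated call ended without suspension library 1 (0.0698), 2 (0.0883) or 3 (0.0707) or uncoated library 2 (0.0707) or 3 (0.0887). Ern1, which encodes IRE1, fell by 0.37 ± 0.11 on laminin (adjusted p = 0.0359). That call ended without suspension library 2 (adjusted p = 0.118) or 3 (0.117) or laminin library 1 (0.0683) or 2 (0.104).

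Genes of amino acid supply are the classical targets of ATF4. Of 12 genes of synthesis and one-carbon metabolism, 0 were called on fibronectin, where 2 had an unadjusted p under 0.05 and DESeq2 called 0, and 1, Psat1 of serine synthesis, on laminin and on uncoated dishes. Without batch 3 there were 0, 1 and 2 calls on fibronectin, laminin and uncoated dishes, and with the batch as a block 2, 3 and 3, all higher. Psat1 differed by 0.36 ± 0.11 on laminin (edgeR adjusted p = 0.0423), and the call ended without any 1 of the 6 libraries compared, at adjusted p of 0.0501 to 0.139. On uncoated dishes it differed by 0.39 ± 0.11 (adjusted p = 0.0395), and the call ended without any 1 library except uncoated library 1, at adjusted p of 0.0739 to 0.138. Of 9 amino acid transporters 2, 4 and 3 rose on fibronectin, laminin and uncoated dishes and 0 fell. Without batch 3, 2 rose on each surface. With the batch as a block 5, 4 and 4 rose and 1, 2 and 0 fell. Slc1a4, a carrier of alanine, serine and cysteine, was at 118 to 128 CPM in suspension and 173 to 213 CPM in the 9 attached libraries. It rose by 0.71 ± 0.07, 0.59 ± 0.07 and 0.63 ± 0.07 on the 3 surfaces, a difference that passed without each single library and without batch 3. Of 13 aminoacyl-tRNA synthetases and related genes 0, 1 and 1 were called. With edgeR 1 of them had an unadjusted p under 0.05 on fibronectin, and DESeq2 called 0 there. Without batch 3 the counts were 0, 1 and 0, and with the batch as a block 1, 4 and 4, all higher.

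Stress transcription factors and other targets of ATF4 or CHOP held several of the larger changes. Of 15 tested, 5 rose and 2 fell on fibronectin, 6 rose and 2 fell on laminin and 7 rose and 2 fell on uncoated dishes. Without batch 3, 3, 5 and 5 rose and 1 fell on each surface. In the blocked fit 6, 7 and 7 rose and 2 fell on each. Nupr1, a stress-induced chromatin protein, was at 18.4 to 26.7 CPM in suspension and 40.9 to 59.4 CPM in attached cells. It rose by 1.28 ± 0.16 on fibronectin, 1.24 ± 0.16 on laminin and 1.07 ± 0.16 on uncoated dishes (edgeR adjusted p = 0.000675, 0.000583 and 0.00174). Vegfa, the vascular growth factor, which ATF4 and hypoxia induce, went the other way, from 167 to 191 CPM in suspension to 81.6 to 108 CPM in attached cells. It fell by 1.03 ± 0.08, 0.86 ± 0.08 and 0.76 ± 0.08 on the log2 scale. Sqstm1, the autophagy receptor p62, rose by 0.67 ± 0.10, 0.84 ± 0.10 and 0.81 ± 0.10. Cebpb, a factor that pairs with ATF4, rose by 0.65 ± 0.13 on laminin and 0.66 ± 0.13 on uncoated dishes and was at 0.28 ± 0.13 on fibronectin, where it was not called. The calls of Nupr1, Vegfa and Sqstm1 on all surfaces, and of Cebpb on laminin and uncoated dishes, held without each single library and without batch 3.

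In the ER itself, 2, 4 and 2 of 20 chaperones and folding enzymes rose on fibronectin, laminin and uncoated dishes and 0 fell. Without batch 3, 1, 4 and 2 rose, and with the batch as a block 3, 6 and 4 rose and 0, 1 and 1 fell. P4hb, a protein disulfide isomerase, rose by 0.30 ± 0.06 on laminin (edgeR adjusted p = 0.00644), which held without each single library. Its calls on fibronectin, at 0.23 ± 0.06, and uncoated dishes, at 0.27 ± 0.06, did not. The first ended without any 1 library except fibronectin library 2, at edgeR adjusted p of 0.0763 to 0.133, and without batch 3 (0.0723). The second ended without suspension library 3 (0.0521) or uncoated library 3 (0.0514). Calr, which encodes the chaperone calreticulin, was not called there, at 0.17 ± 0.09. Of 17 genes of ER-associated degradation and translocation 4, 7 and 5 rose and 0 fell. Without batch 3, 1, 5 and 3 rose. With the batch as a block 6, 7 and 6 rose and 0, 1 and 1 fell. On fibronectin the call of Sec61b, a subunit of the translocation channel, ended without any 1 library except suspension library 1, at edgeR adjusted p of 0.0567 to 0.155. It also ended without batch 3 (0.1145). The call there of Selenos, a selenoprotein of the degradation complex, ended without suspension library 2 (0.0549) or 3 (0.0770), fibronectin library 1 (0.0658) or 3 (0.0714), or batch 3 (0.0848). Ube2g2, a ubiquitin-conjugating enzyme of that pathway, rose by 0.67 ± 0.11 on laminin and 0.66 ± 0.11 on uncoated dishes (adjusted p = 0.00293 and 0.00405). On fibronectin it rose by 0.52 ± 0.11 (adjusted p = 0.0158), which ended without suspension library 3 (0.0736), fibronectin library 1 (0.0683) or 3 (0.0634), or batch 3 (0.0544).

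Beside Sesn2, its relative Sesn1, a target of p53 and FOXO factors, rose by 0.92 ± 0.19 on laminin (edgeR adjusted p = 0.00971), 0.93 ± 0.19 on fibronectin (adjusted p = 0.0127) and 0.76 ± 0.19 on uncoated dishes (adjusted p = 0.0278). Without batch 3 the last 2 were not called (0.0583 and 0.115). The fibronectin call also ended without suspension library 3 (0.0594) or fibronectin library 1 (0.0519), and the uncoated call without suspension library 2 (0.0894) or 3 (0.0999) or uncoated library 2 (0.0619) or 3 (0.0760). Of 13 cytosolic heat shock genes 0 were called on fibronectin, where 3 had an unadjusted p under 0.05 and DESeq2 called 1, 2 rose and 1 fell on laminin, and 1 rose on uncoated dishes. Without batch 3 only 1 gene was called, higher on laminin, over the 3 comparisons. In the blocked fit 4, 5 and 4 rose and 1, 2 and 2 fell. The one that fell, the inducible chaperone gene Hspa1a, fell by 0.82 ± 0.16 (adjusted p = 0.00750) and was not called without batch 3 (-0.71, adjusted p = 0.0633).

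**Figure D5:**
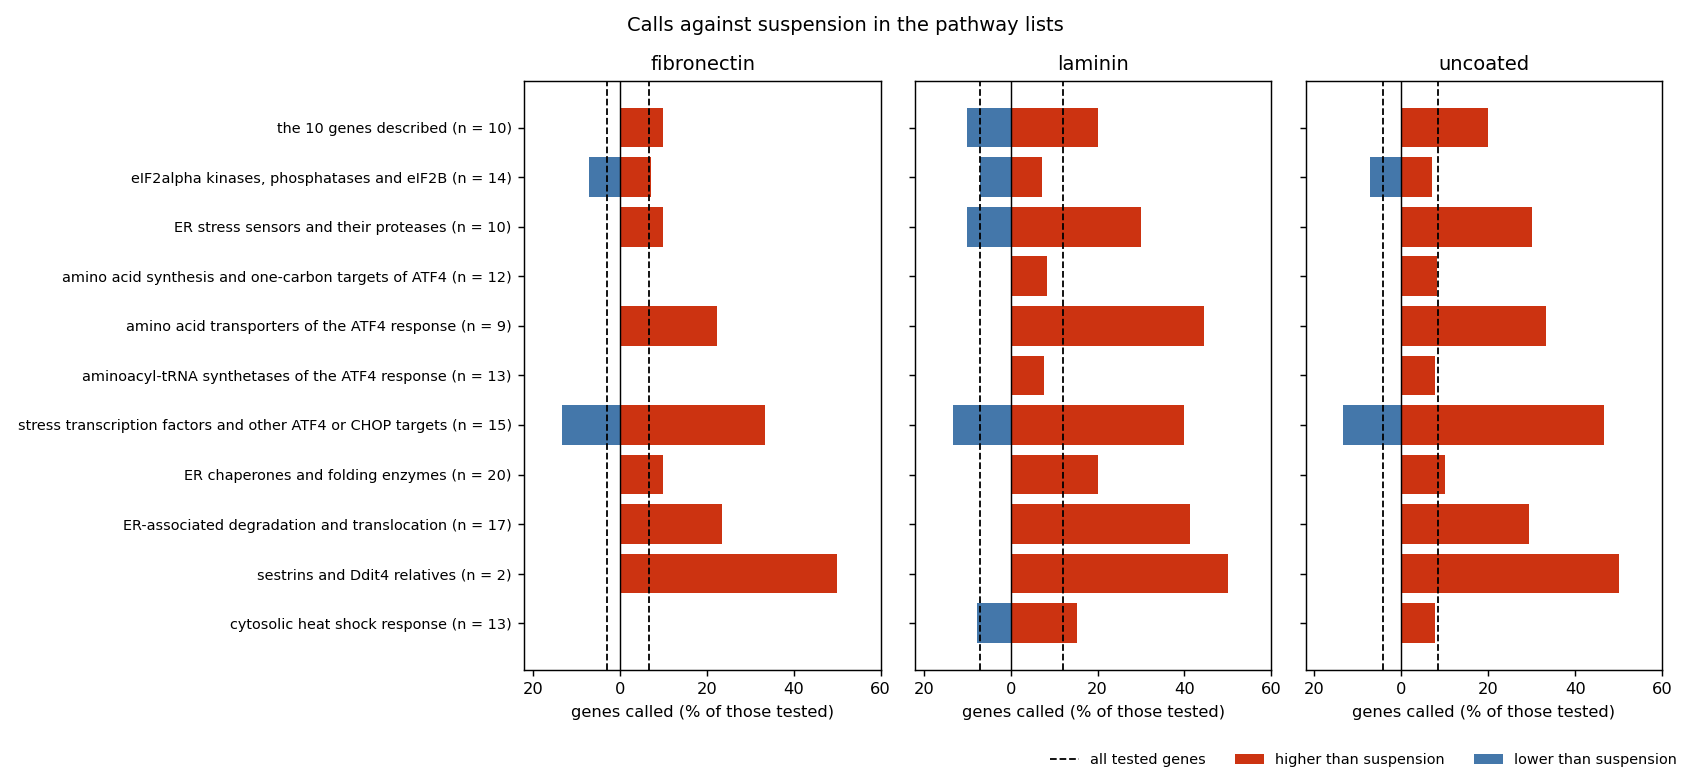
Share of tested genes called higher (red, to the right) or lower (blue, to the left) than suspension in the 10 genes and the 10 pathway lists, 1 panel per surface, with dashed lines at the shares over all tested genes. Calls are from the edgeR fit without the block. Shares of higher calls lie right of the dashed line on all 3 surfaces for the 10 genes, ER stress sensors, amino acid transporters, stress transcription factors, ER chaperones, ER-associated degradation and sestrins. Several of these shares rest on 1 gene. On fibronectin it was 1 of the 10 genes and 1 of 10 ER stress sensors, beside 6.61%, and sestrins had 1 of 2 on each surface. ER chaperones had 2 of 20 on uncoated dishes, beside 8.48%. Whether any share exceeded its background was not tested.

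Genes whose levels ran most like those of Atf4 and Hspa5 were sought among 8720 genes, by the root mean square difference of log2 CPM centered on each gene's mean over the 12 libraries. For Atf4 they were S100a10 (0.0478), Stmp1 (0.0509), Ssr4 (0.0539), S100a4 (0.0544) and C15h14orf119 (0.0547), beside a median of 0.243 over all candidates and a spread of Atf4 about its own mean of 0.200. For Hspa5 they were Rtn4 (0.0413), Anapc10 (0.0447), Trmt10a (0.0450), Oxnad1 (0.0461) and Ccdc93 (0.0465), beside a median of 0.182 and a spread of 0.0608. The 12 libraries share batches and scaling, and likeness of this kind is a description of these libraries.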

How the data were processed

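The labels' protocols name the TruSeq Stranded Total RNA LT kit for the 12 libraries of a rat cardiac progenitor clone. The authors deposited raw read counts per gene, keyed by Entrez identifier, in 1 file per library, and the values are whole numbers. Per the submitters' processing notes, rn4 was the build. The aligner, counter, annotation and strand setting were not given in the sources used here. Near-identical copies and overlapping antisense genes therefore cannot be judged. Symbols and promoter windows came from RefSeq GRCr8, in which 16761 of 16924 identifiers matched, and no coordinates were carried between builds. The 163 others held 0.301 to 0.357% of counts and stayed in the tests.

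CPM was computed from library totals without further scaling, mean ± SD over 3 libraries. Tests used edgeR 4.0.16 in R 4.3.3 (filterByExpr, TMM factors 0.962 to 1.03, glmQLFit, glmQLFTest) on all 12 libraries in a means model of 4 groups, with 10020 genes tested, 8 residual degrees of freedom, Benjamini-Hochberg adjustment and a threshold of 0.05. A gene is called, or said to rise or fall, past that threshold. SE is the log2 fold change over the square root of F. The batch contrast used the 9 attached libraries, with the surface as a term and 4 residual degrees of freedom. The scripts were tested on simulated data. Alternatives were DESeq2 1.42.0, library size only, no filter, the batch as a block, no batch 3 and each library left out. In comparisons of groups, fits that left out a library or batch 3 did not use the block and so ignored the pairing.

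Same-numbered libraries share a batch in the labels and are therefore paired. Their log2 CPM deviations from group means correlated across genes with a median of 0.409 over 18 same-batch pairs (lowest 0.036) and -0.124 over 36 pairs of different batches. The 9 attached pairs were at 0.514 or more. The biological coefficient of variation was 0.152 without and 0.100 with the block.

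The members, gene lists and comparisons were chosen with earlier results of these data known. Text names all 10 members, genes of each pathway list by the smallest unadjusted p against suspension or between laminin and fibronectin, and the 5 genes most alike to Atf4 and to Hspa5.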

Additional observations from a re-analysis of the deposited data

How the results depend on the processing

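Over the 10 genes and all comparisons, 379 of 450 values with a single library left out and 301 of 340 under the other settings kept their direction and their side of the threshold. The rise of Atf4 against suspension kept both on all 3 surfaces under each alternative. For the other values that did not, the cause was not tested. The fall of Ddit3 on laminin also missed the threshold with library size only (adjusted p = 0.0555). With the batch as a block, the paired fit, all-gene calls became 2872 on fibronectin, 4333 on laminin and 3889 on uncoated dishes against suspension, 41 for laminin against fibronectin and 47 for fibronectin against uncoated. Calls among the 10 genes became 4, 5 and 5 against suspension. The block changed no other call among them against suspension or between surfaces than those given in the report. DESeq2 called 2 of the 10 genes on fibronectin, Atf4 and Ddit3. Over all genes it called 45 for laminin against fibronectin and 53 for fibronectin against uncoated. Without batch 3, 1 of the 10 genes was called on laminin and 1 on uncoated dishes, and 11 genes over all in fibronectin against uncoated.

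With single libraries left out, all-gene calls ranged over 412 to 720 on fibronectin, 797 to 1439 on laminin and 537 to 1285 on uncoated dishes, 7 to 15 for laminin against fibronectin and 10 to 14 for fibronectin against uncoated. Calls among the 10 genes ranged over 1 to 2, 1 to 3 and 1 to 3 against suspension, and 3 to 7 in the batch contrast. All-gene calls were lowest without suspension library 3 on all 3 surfaces.

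Values whose sign turned were small and not called. Without batch 3, log2 fold changes against suspension became -0.0006 for Asns and 0.0119 for Hspa5 on fibronectin. They became -0.0468 for Chac1, 0.0173 for Sesn2 and 0.0474 for Hspa5 on laminin, and -0.0088 for Asns, 0.0542 for Hspa5 and -0.0071 for Xbp1 on uncoated dishes. Between surfaces, Hspa5 became 0.0355 (laminin against fibronectin), -0.0423 (fibronectin against uncoated) and -0.0067 (laminin against uncoated), Atf4 became -0.003 (fibronectin against uncoated) and Herpud1 0.0174 (laminin against uncoated). With library size only, Ddit3 was at 0.0205, Hspa5 at 0.0242 and Sesn1 at 0.0206 (laminin against fibronectin), Atf4 at -0.005 and Asns at -0.0173 (fibronectin against uncoated), and Herpud1 at 0.0126 (laminin against uncoated). In that last comparison Herpud1 was also at 0.0031 with DESeq2, 0.0028 without a filter and 0 with the batch as a block.

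Leaving out single libraries turned further small, uncalled differences. Against suspension on fibronectin, Asns ranged over -0.0064 to 0.1118, Sesn2 over -0.2522 to 0.0925, Hspa5 over -0.0409 to 0.0271 and Sesn3 over -0.308 to 0.0378. On laminin Chac1 ranged over -0.1016 to 0.109, Sesn2 over -0.1813 to 0.1633 and Hspa5 over -0.0488 to 0.019. On uncoated dishes Asns ranged over -0.0122 to 0.1241, Hspa5 over -0.0811 to 0.0168, Xbp1 over -0.002 to 0.1031 and Slc38a2 over -0.031 to 0.1239. For laminin against fibronectin, Atf4 ranged over -0.1008 to 0.0035, Ddit3 over -0.0478 to 0.0264, Trib3 over -0.1703 to 0.059, Asns over -0.0119 to 0.1051, Sesn2 over -0.0041 to 0.1123, Hspa5 over -0.0328 to 0.0227, Atf6b over -0.0144 to 0.1737, Creb3l2 over -0.1404 to 0.0172, Sesn1 over -0.1423 to 0.1432 and Sesn3 over -0.2939 to 0.0014. For fibronectin against uncoated, Atf4 ranged over -0.0512 to 0.0594, Asns over -0.0702 to 0.0779, Chac1 over -0.012 to 0.1734, Hspa5 over -0.0317 to 0.0659, Xbp1 over -0.0152 to 0.1039 and Herpud1 over -0.1559 to 0.0022. For laminin against uncoated, Asns ranged over -0.0253 to 0.1112, Ddit4 over -0.1978 to 0.0815, Hspa5 over -0.0396 to 0.058 and Herpud1 over -0.0689 to 0.0817.

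The scarcest of the 10 genes were Sesn2, with 47 to 73 counts per suspension library, and Ddit4, with 55 to 137. The part of counting depth in the width of their intervals was not tested.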
